A study of Rattus norvegicus with 8 samples.

Results

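The miR-181 family was followed in C6 cells, an established rat glial tumour line labelled as glioblastoma, through 5 of the 719 microRNAs (miRNAs) on an Agilent single-colour array. The members were taken by name. They are the 4 main arms rno-miR-181a-5p, rno-miR-181b-5p, rno-miR-181c-5p and rno-miR-181d-5p, and the passenger arm rno-miR-181a-1-3p, written below without the rat prefix. C6 cells received haloperidol at 2 µg/ml, a first-generation antipsychotic, risperidone at 4 µg/ml or clozapine at 25 µg/ml, both second-generation antipsychotics. The drug was added to the medium each day for 5 days, and control cells were untreated, with no vehicle named in the labels. All groups grew in medium with horse serum and fetal bovine serum. Each group had 2 arrays from 2 biological repeats, 8 arrays in all, with 100 ng of total RNA per array.

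A miRNA hairpin is cut into a duplex with a 5p and a 3p arm. The arm that is kept, here called the main arm, guides the silencing complex to messenger RNAs through its seed at bases 2 to 8, and the other arm is mostly discarded. Main arms that share a seed are predicted to share many targets. The miR-181 family is known from T cells, where miR-181a sets antigen sensitivity in the mouse, and from brain, where members act on apoptosis regulators of the Bcl2 family. Reduced miR-181a and miR-181b have been described in human gliomas, and miR-181d is known in human glioblastoma for its action on the DNA repair enzyme MGMT.

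The mature sequences of all 5 members are shown because the main arms share 1 seed and differ by few bases, which bears on how far the array can separate them. They were taken from RefSeq on build GRCr8, and capitals mark the seed.
miR-181a-5p: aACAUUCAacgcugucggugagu
miR-181b-5p: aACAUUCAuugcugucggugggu
miR-181c-5p: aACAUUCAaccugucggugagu
miR-181d-5p: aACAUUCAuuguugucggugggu
miR-181a-1-3p: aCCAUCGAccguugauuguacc
The seed ACAUUCA was shared by all 4 main arms. Counted from 1 at the 5′ end, miR-181b-5p differed from miR-181a-5p by A9U, C10U and A21G. miR-181d-5p differed from miR-181b-5p by the single change C12U. miR-181c-5p equalled miR-181a-5p with the G at position 11 absent. The passenger arm miR-181a-1-3p had another seed, CCAUCGA, which it shared with miR-181c-3p.

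The members come from 3 pairs of neighbouring hairpins. On chromosome 13, miR-181a-5p lies at chr13:52037081-52037103 and miR-181a-1-3p at chr13:52037121-52037142 in the Mir181a-1 hairpin, and Mir181b1 follows 61 bases further on. Mir181a2 and Mir181b2 lie on chromosome 3 within the span of Nr6a1, with 986 bases between them, and give the same miR-181a-5p (chr3:43025601-43025623) and miR-181b-5p. On chromosome 19, miR-181c-5p (chr19:40888314-40888335) and miR-181d-5p (chr19:40888484-40888506) come from hairpins 77 bases apart. An array signal for miR-181a-5p therefore pools 2 loci, whereas miR-181a-1-3p comes from 1. The hairpin of Mir181a2 is shown because it yields the same main arm as Mir181a-1 but a different passenger. Capitals mark miR-181a-5p and miR-181a-2-3p.
Mir181a2: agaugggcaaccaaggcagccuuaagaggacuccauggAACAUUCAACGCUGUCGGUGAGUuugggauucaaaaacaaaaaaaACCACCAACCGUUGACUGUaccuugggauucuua

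The array had 10 entries named miR-181. All 5 members were detected on 8 of 8 arrays. Of the other 5 entries, miR-181a-2-3p, miR-181b-2-3p, miR-181c-3p and miR-181d-3p were detected on 0 arrays. miR-181b-1-3p was called detected on 5 arrays, namely both haloperidol arrays and 1 array each of risperidone, clozapine and control. Its summed signal lay at the floor of the scale on 7 of the 8 arrays and above it, at -5.88, on risperidone replicate 1, so it carries no order between groups.

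Levels are given as the log2 of the summed probe signal divided by the array's 75th percentile among probes above background, so that 0 is that percentile and the floor is -6.21. Levels of different members are not set against each other, because probes differ in brightness. In these bulk samples a lower level in every cell and fewer cells with the miRNA cannot be told apart. The glial tumour miRNAs miR-21-5p, miR-125b-5p and miR-23a-3p were detected on 8 arrays, as were the oligodendrocyte miR-338-3p and the endothelial miR-126a-3p. Of 2 neuronal miRNAs, miR-124-3p was detected on 0 arrays and miR-128-3p on 8. The liver miR-122-5p and the erythrocyte miR-144-3p were detected on 0, and miR-451-5p of erythrocytes and serum on 2. The leukocyte miR-142-3p, miR-223-3p and miR-150-5p were detected on 3, 4 and 5, with miR-142-3p at the floor throughout. The number of miRNAs detected was 242 and 254 with haloperidol, 193 and 249 with risperidone, 203 and 233 with clozapine and 242 and 249 in controls. The 2 arrays with the fewest, replicate 2 of risperidone and of clozapine, also had the lowest labelling spike-in signals (log10 2.73 and 2.88, against 2.99 to 3.12 on the others). Replicate 1 of every group sat in slide row 1 and replicate 2 in slide row 2, so values within each row are given beside the group values. Slide column and group cannot be told apart. The 3 drug comparisons share the same 2 control arrays.

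No member differed from control past the threshold under any drug. limma, fitted over all 243 tested miRNAs, called 0 members and 0 miRNAs at an adjusted p under 0.05 in each drug comparison (0% of those tested). At an unadjusted p under 0.05, 7% of all tested miRNAs passed for haloperidol, 9.05% for risperidone and 14.8% for clozapine. Among the members that count was 0 of 5 for haloperidol, 0 of 5 for risperidone and 1 of 5 for clozapine, namely miR-181a-1-3p. With slide row as a block the unadjusted share was 16.9% for haloperidol, 25.1% for risperidone and 26.3% for clozapine, and the members' count was 1 of 5 (miR-181a-5p), 0 of 5 and 1 of 5 (miR-181a-1-3p). The largest changes by size were 1.55-fold higher for miR-181a-1-3p under clozapine and 1.35-fold lower for miR-181a-5p under haloperidol. At an adjusted p under 0.05 the fit with that block called 0 miRNAs for haloperidol, 1 for risperidone and 2 for clozapine. The risperidone call was miR-338-5p, and the clozapine calls were miR-338-5p and miR-3561-5p. None of these calls was a member.

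**Figure D1:**
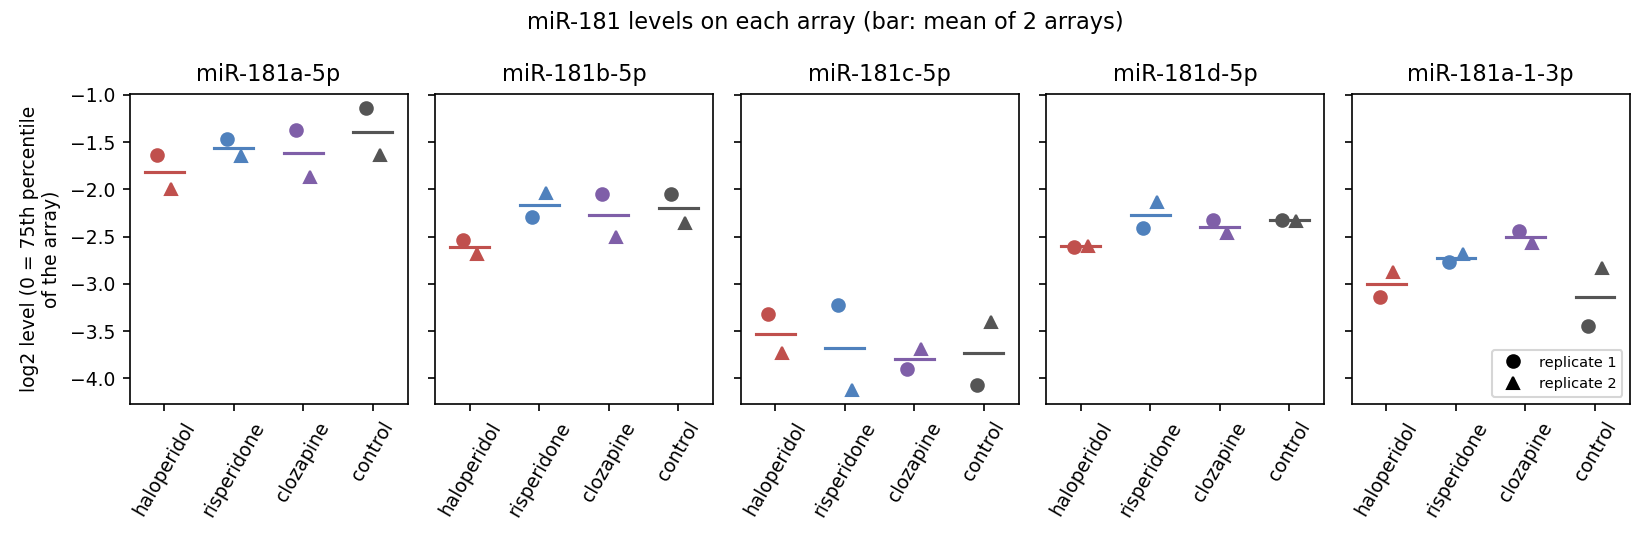
Log2 level of each miR-181 member on every array, with 0 at the array's 75th percentile; points are arrays (circle, replicate 1; triangle, replicate 2) and bars are means of 2 arrays. The haloperidol points of miR-181b-5p and miR-181d-5p lie below both control points, and the clozapine and risperidone points of miR-181a-1-3p lie above both control points.

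miR-181a-5p, best known for tuning T-cell receptor signalling in the mouse, had log2 levels of -1.64 and -1.99 on the haloperidol arrays, -1.47 and -1.65 on the risperidone arrays, -1.37 and -1.87 on the clozapine arrays and -1.14 and -1.63 on the control arrays. Control replicate 1 was the highest of all 8 arrays and haloperidol replicate 2 the lowest, and the upper haloperidol array lay just under the lower control array. With haloperidol the log2 fold change was -0.43 (SE 0.27, 95% interval -1.11 to 0.25, n = 2 per group, limma adjusted p = 0.576). Within slide rows it was -0.50 and -0.36, and with slide row as a block its SE was 0.12 (limma unadjusted p = 0.0219, adjusted p = 0.222). Its size without scaling was -0.17. With risperidone the log2 fold change was -0.17 (SE 0.27, interval -0.85 to 0.50) and with clozapine -0.23 (SE 0.27, interval -0.91 to 0.45), and both groups overlapped the controls. In slide rows 1 and 2 risperidone gave -0.33 and -0.02, and clozapine -0.23 and -0.23. Without control replicate 1 the haloperidol value was -0.18, and the risperidone and clozapine values, 0.07 and 0.02, lay on the other side of 0. Without control replicate 2 the values were -0.68 for haloperidol, -0.42 for risperidone and -0.48 for clozapine.

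miR-181b-5p, which is made beside miR-181a in both genomic pairs, had log2 levels of -2.54 and -2.68 on the haloperidol arrays, -2.30 and -2.03 on the risperidone arrays, -2.04 and -2.50 on the clozapine arrays and -2.04 and -2.35 on the control arrays. Both haloperidol arrays lay below both control arrays, an arrangement that 32.9% of all tested miRNAs had. The haloperidol mean was -2.61 ± 0.10 against -2.20 ± 0.22 in controls (SD, n = 2 each), a log2 fold change of -0.41 (SE 0.22, 95% interval -0.97 to 0.14, limma adjusted p = 0.576). Within rows the values were -0.49 and -0.33. The haloperidol value was -0.26 without control replicate 1, -0.57 without control replicate 2 and -0.15 without scaling. Risperidone (0.03, SE 0.22) and clozapine (-0.08, SE 0.22) overlapped the controls, with intervals of -0.52 to 0.58 and -0.63 to 0.47. With risperidone the rows pointed in opposite directions, at -0.25 in row 1 and 0.32 in row 2.

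miR-181d-5p, which differs from miR-181b-5p by 1 base, had the narrowest range of the members over the 8 arrays, 0.48 on the log2 scale. Its log2 levels were -2.61 and -2.59 on the haloperidol arrays, -2.40 and -2.14 on the risperidone arrays, -2.32 and -2.46 on the clozapine arrays and -2.32 and -2.33 on the control arrays. As with miR-181b-5p, both haloperidol arrays lay below both control arrays. The log2 fold change with haloperidol was -0.28 (SE 0.14, 95% interval -0.63 to 0.08, limma adjusted p = 0.576), and the rows gave -0.29 and -0.26. Without scaling the haloperidol value was -0.017. The risperidone value was 0.06 (interval -0.30 to 0.41) and the clozapine value -0.07 (interval -0.43 to 0.29), and neither group was separate from the controls.

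miR-181c-5p, known in rat heart cells for reaching mitochondria, had the widest spread between replicates of any member in the haloperidol, risperidone and control groups. Its log2 levels were -3.32 and -3.73 on the haloperidol arrays, -3.23 and -4.12 on the risperidone arrays, -3.91 and -3.69 on the clozapine arrays and -4.07 and -3.40 on the control arrays. The 2 risperidone arrays were the highest and the lowest of all 8. Haloperidol gave a log2 fold change of 0.21, risperidone 0.06 and clozapine -0.06, each with an SE of 0.38. Within rows the signs split for each drug. Haloperidol gave 0.75 in row 1 and -0.33 in row 2, risperidone 0.85 and -0.72, and clozapine 0.17 and -0.29. The intervals, such as -0.90 to 1.02 with risperidone, include changes close to 2-fold either way.

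The haloperidol and control arrays were thus separate for 3 main arms, which had both haloperidol arrays below both control arrays: miR-181a-5p, miR-181b-5p and miR-181d-5p. Of all tested miRNAs 32.9% had this arrangement with haloperidol, so 3 of 5 members is to be read against that share. For miR-181a-5p the separation was a gap of -0.00074 between the higher haloperidol array and the lower control array, and 1 of its 2 probes overlapped, at -3.33 on haloperidol replicate 1 and -3.36 on control replicate 2. The same gap was -0.19 for miR-181b-5p and -0.26 for miR-181d-5p. With risperidone and clozapine the same arrangement held for 0 of 5 members, against 32.9% and 34.2% of all tested miRNAs. Both haloperidol arrays lay above both control arrays for 0 of 5 members, against 11.1% of all tested miRNAs. Over the 4 main arms the median log2 fold change was -0.35 for haloperidol, 0.04 for risperidone and -0.07 for clozapine, beside medians over all tested miRNAs of -0.15, -0.15 and -0.17. Scaling to the percentile over all probes moved the medians over all tested miRNAs to -0.04, 0.35 and 0.42, and those of the main arms to -0.22, 0.63 and 0.58. That percentile was a weak signal, at 1.82 on risperidone replicate 2 and 3.34 on clozapine replicate 2, against 7.60 to 16.05 on the others. On each array 17.8% to 25.9% of probes were above background. Without scaling the medians were 0.09, -0.64 and -0.55 over all tested miRNAs and -0.09, -0.57 and -0.50 over the main arms. Only the haloperidol median of the main arms thus kept its direction under both. In slide rows 1 and 2 the haloperidol median of the main arms was -0.39 and -0.33, beside -0.16 and -0.15 over all tested miRNAs. For comparison, the medians with haloperidol were 0.29 for the miR-29 family, 0.08 for the miR-30 family and -0.01 for the miR-23/27/24 clusters, and the differences between families were not tested.

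**Figure D2:**
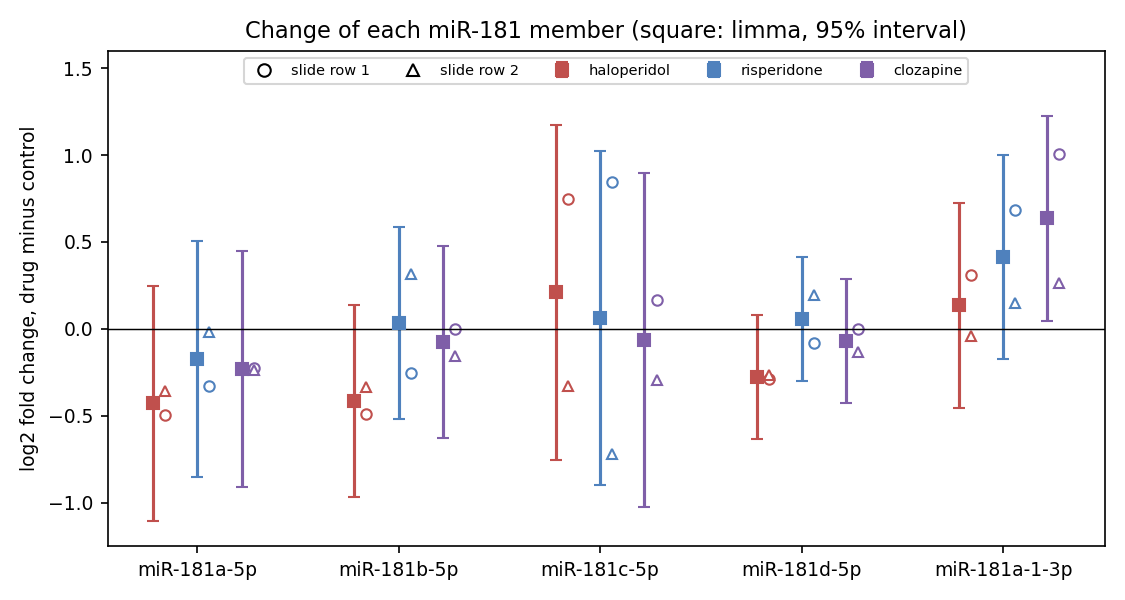
Log2 fold change of each member, drug minus control; squares are limma estimates with 95% intervals (n = 2 per group), open circles and triangles are the differences within slide rows 1 and 2. Of the 15 intervals 1 leaves out 0, that of miR-181a-1-3p with clozapine (0.05 to 1.23), before adjustment for the 243 miRNAs tested.

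**Figure D3:**
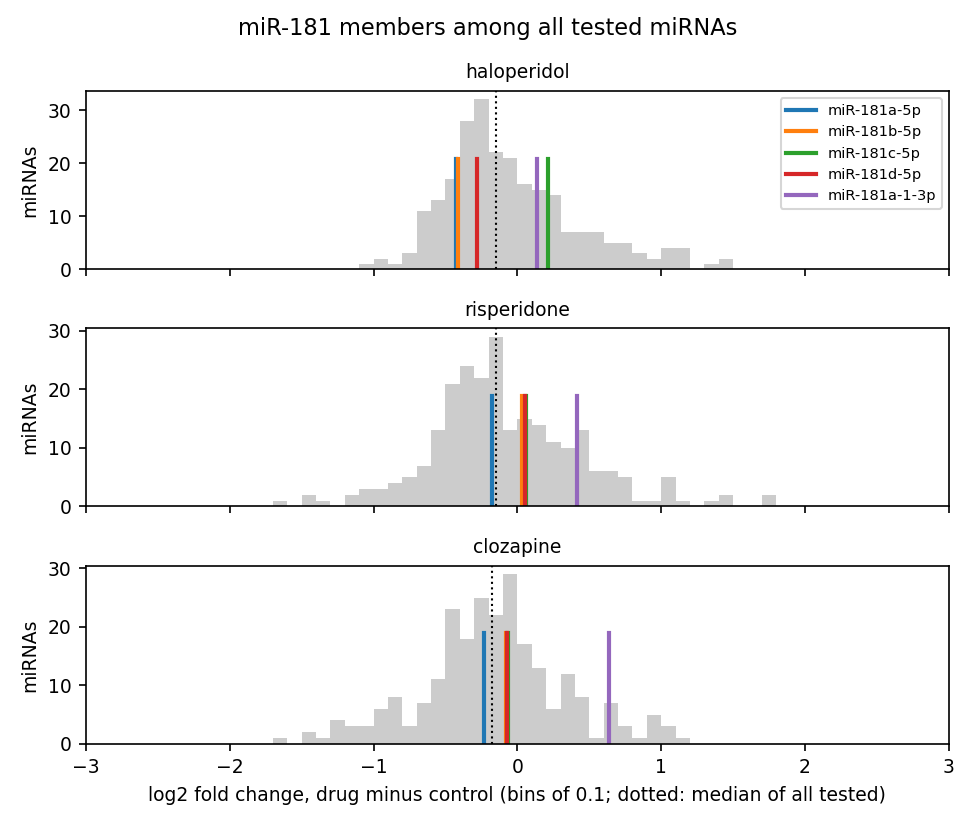
Log2 fold changes of all 243 tested miRNAs (grey bars, bins of 0.1) for each drug, drug minus control, with coloured lines for the miR-181 members and a dotted line for the median of all tested miRNAs (-0.15, -0.15 and -0.17). The members lie within the range of the other miRNAs, with miR-181a-1-3p on its right side for risperidone and clozapine.

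The passenger arm miR-181a-1-3p showed another pattern. Its log2 levels were -3.14 and -2.87 on the haloperidol arrays, -2.76 and -2.69 on the risperidone arrays, -2.44 and -2.57 on the clozapine arrays and -3.45 and -2.83 on the control arrays. Control replicate 1 was the lowest of the 8 arrays, and the clozapine and the risperidone arrays lay above both control arrays. The clozapine mean was -2.50 ± 0.09 against -3.14 ± 0.43 in controls (SD, n = 2 each). That is a log2 fold change of 0.64 (SE 0.23, 95% interval 0.05 to 1.23), with a limma adjusted p = 0.326 and an unadjusted p = 0.0387. Within rows it was 1.01 in row 1 and 0.27 in row 2. Without scaling it was 0.21 (limma unadjusted p = 0.727), and with the percentile over all probes 1.28. With risperidone the log2 fold change was 0.41 (SE 0.23, limma adjusted p = 0.508), with 0.68 and 0.15 in the 2 rows, and -0.20 when the arrays were not scaled. With haloperidol it was 0.13 (SE 0.23, interval -0.45 to 0.72), with 0.31 in row 1 and -0.04 in row 2. The share of all tested miRNAs with both drug arrays above both control arrays was 5.35% for clozapine and 6.17% for risperidone, and 1 of 5 members had it under each. The size depended on which control array was used. Without control replicate 1 clozapine gave 0.33, risperidone 0.11 and haloperidol -0.17. Without control replicate 2 the values were 0.94, 0.72 and 0.44 in the same order. The 2 control arrays also differed most from each other over all tested miRNAs, with an SD of their log2 differences of 0.68, against 0.45 to 0.61 within the drug groups.

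Since both arms of Mir181a-1 were measured, the passenger level minus the main-arm level was taken on each array, which cancels the scaling between arrays. Only its change between groups is read. It was -1.50 and -0.88 on the haloperidol arrays, -1.29 and -1.04 on the risperidone arrays, -1.07 and -0.70 on the clozapine arrays and -2.31 and -1.20 on the control arrays. Both clozapine arrays lay above both control arrays, while the risperidone and haloperidol arrays overlapped the controls. Relative to control the difference was larger by 0.87 on the log2 scale with clozapine, 0.59 with risperidone and 0.56 with haloperidol. In row 1 these changes were 1.23, 1.01 and 0.81, and in row 2 they were 0.50, 0.16 and 0.32.

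The exact two-sided permutation test gave p = 0.333 for clozapine, the smallest it can give, and 0.667 for risperidone and for haloperidol (0.667 for each after Benjamini-Hochberg adjustment over the 3). Without control replicate 1 the changes were 0.31, 0.03 and 0.01 for clozapine, risperidone and haloperidol. Leaving out control replicate 2 instead leaves the lower control value, -2.31, and so makes each change larger. Shifts between arms were also seen in other hairpins. Among 30 of these with both arms tested and above the floor, 20% changed by more than the miR-181a arms with clozapine, 46.7% with risperidone and 36.7% with haloperidol. Their median absolute change was 0.34 with clozapine, 0.54 with risperidone and 0.40 with haloperidol. Drug and control arrays did not overlap for 26.7% of those hairpins under clozapine, 43.3% under risperidone and 46.7% under haloperidol. The main arm miR-181a-5p also comes from Mir181a2, so the difference is not that of 1 hairpin alone.

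**Figure D4:**
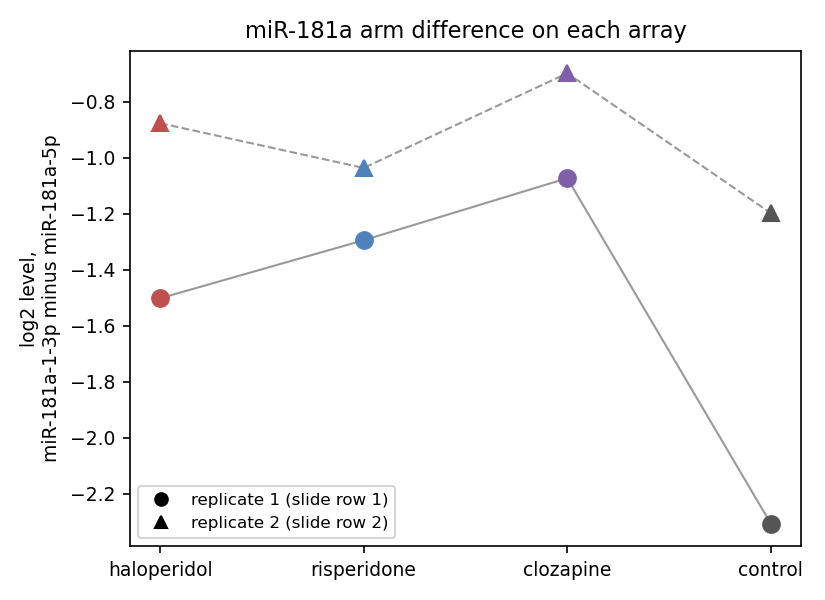
Log2 level of miR-181a-1-3p minus that of miR-181a-5p on each array; circles joined by a solid line are slide row 1, triangles joined by a dashed line are slide row 2. The control array is at -2.31 in row 1 and -1.20 in row 2, and each serves all 3 drug comparisons of its row.

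The drugs did not differ from each other past the threshold for any member. The limma F test among the 3 drugs gave an adjusted p of 1 for each, with unadjusted p from 0.145 for miR-181d-5p to 0.784 for miR-181c-5p. It called 0 of 243 miRNAs, and 0.412% had an unadjusted p under 0.05. The limma F test among all 4 groups gave adjusted p from 0.778 for miR-181a-1-3p to 0.961 for miR-181c-5p, called 0 of 243, and 3.29% of miRNAs had an unadjusted p under 0.05. By group means, miR-181a-1-3p was highest with clozapine, then risperidone, haloperidol and control. For miR-181b-5p and miR-181d-5p the order from the highest was risperidone, control, clozapine and haloperidol. For miR-181a-5p it was control, risperidone, clozapine and haloperidol, and for miR-181c-5p haloperidol, risperidone, control and clozapine. Neighbours in these orders overlapped on single arrays except clozapine and risperidone, and risperidone and haloperidol, for miR-181a-1-3p, and clozapine and haloperidol for miR-181b-5p and miR-181d-5p. Doses differed between the drugs, so these orders are not comparisons at a matched dose.

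Each member was read by 2 probes with 7 to 10 usable spots per array. The probes had the same sign in 12 of 15 comparisons. The exceptions were risperidone values, at -0.01 and 0.05 for miR-181b-5p, -0.09 and 0.11 for miR-181c-5p and -0.01 and 0.18 for miR-181d-5p. For miR-181a-5p with haloperidol the probes gave -0.44 and -0.42, for miR-181b-5p -0.45 and -0.39, and for miR-181d-5p -0.35 and -0.24. For miR-181a-1-3p with clozapine they gave 0.63 and 0.64. The gap between the 2 probes had a median of 0.04 and was at most 0.20. All spots of 9 of the 10 probes were well above background on every array. The exception was the dimmer probe of miR-181c-5p. It had every spot above background on 5 arrays and none on risperidone replicate 2, where its mean signal was 4.57.

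**Figure D5:**
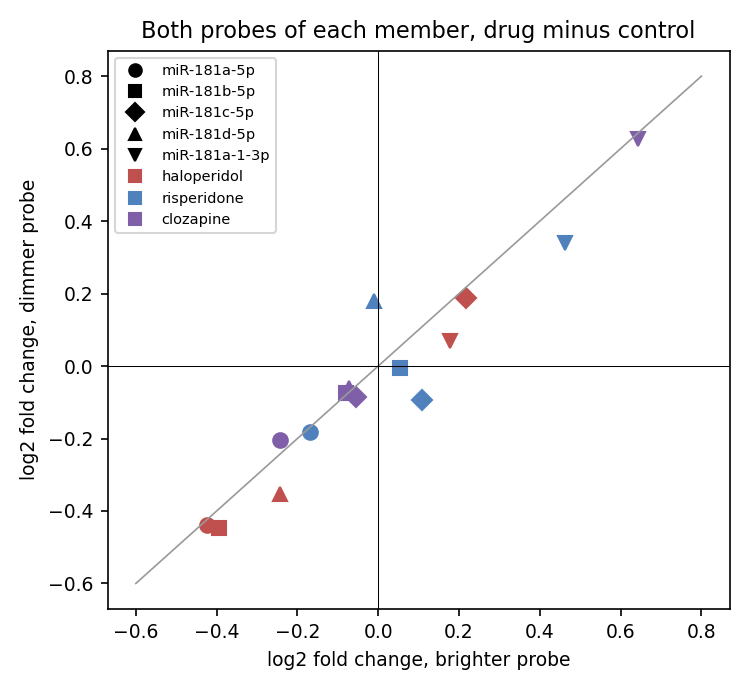
Log2 fold change, drug minus control, of the brighter probe of each member (horizontal axis) against that of its dimmer probe (vertical axis), 1 point per member and drug; the grey line marks equal values. Points follow the line, and the largest gap is 0.20, for miR-181c-5p with risperidone.

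Across the 8 arrays the members did not move as 1 group. Pearson's r was 0.88 between miR-181b-5p and miR-181d-5p, which lie on different chromosomes and differ by 1 base, and 0.79 between miR-181a-5p and miR-181b-5p, which are made in pairs. It was -0.57 between miR-181c-5p and miR-181d-5p, which lie 77 bases apart, and -0.23 between miR-181c-5p and miR-181a-5p, which differ by 1 absent base. The 2 arms of Mir181a-1 had r = -0.38. How far the probes of near-identical members share signal was not tested. These correlations are descriptions over 8 arrays that share a slide and a scaling.

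Among the 237 other tested miRNAs, the levels most like those of miR-181a-5p over the 8 arrays were miR-196c-5p (r = 0.96), miR-378b (0.96) and let-7b-5p (0.88). For miR-181b-5p they were miR-455-3p (0.94), let-7a-1-3p (0.86) and miR-125a-3p (0.83), and for miR-181d-5p miR-125a-3p (0.89), miR-702-3p (0.86) and miR-6328 (0.85). For miR-181c-5p they were miR-542-5p (0.96), miR-219-5p (0.94) and miR-103-3p (0.90). For the passenger arm they were miR-21-5p (0.82), miR-222-5p (0.79) and miR-21-3p (0.76). miR-125a-3p stood in the lists of both miR-181b-5p and miR-181d-5p, which had r = 0.88 with each other. The 3 named for each member were picked as the highest of 237 over 8 arrays, so high values follow in part from that choice.

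Of 14 miRNAs listed with miR-181 for roles in glial stress or in restraining glioma growth, 13 were on the array and 11 were tested. limma called 0 of the 11 with each drug. Log2 fold changes above 0 were found for 7 under haloperidol, 6 under risperidone and 6 under clozapine, with medians of 0.20, 0.03 and 0.05. Over all tested miRNAs 37.9%, 38.3% and 31.7% were above 0, with the medians given above. Without scaling the list's medians were 0.46, -0.58 and -0.38, so those of risperidone and clozapine turned. At an unadjusted p under 0.05 there were 2 of the 11 for each drug, beside 7%, 9.05% and 14.8% of all tested miRNAs: miR-34a-5p and miR-338-3p for haloperidol, miR-128-3p and miR-338-3p for risperidone, and miR-326-3p and miR-338-3p for clozapine. miR-338-3p, known from oligodendrocytes, was at 1.02 under haloperidol, 1.09 under risperidone and 1.08 under clozapine (SE 0.36). The 5p arm miR-338-5p, which is outside the list, went the other way, at -1.18 under risperidone and -1.26 under clozapine. With slide row as a block both of these passed the threshold (limma adjusted p = 0.0429 and 0.0319). miR-29b-3p, which targets collagen messages, was at 1.11, 1.13 and 0.89 with haloperidol, risperidone and clozapine (SE 0.69). miR-34a-5p, a p53 target, was at 0.67, 0.32 and 0.06 in the same order (SE 0.20). miR-128-3p, a neuronal miRNA that restrains Bmi1 in glioma, was at -0.40 under haloperidol, -0.54 under risperidone and -0.50 under clozapine (SE 0.20). miR-7a-5p, which targets the EGF receptor, was at -0.18, -0.31 and -0.07 in the same order (SE 0.26). miR-146a-5p, a brake on innate immune signalling, was at -0.12, -0.30 and -0.10 (SE 0.46). miR-326-3p, which targets Notch receptors, was at -0.47 under clozapine (SE 0.13, limma adjusted p = 0.326).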

How the data were processed

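Total RNA of 8 C6 samples was hybridised to Agilent rat miRNA arrays. The deposited spot and gene-level signals are linear intensity values, unscaled between arrays, that the authors made with Agilent Feature Extraction 10.7.3.1 per the file headers; the deposited flags, of unit other, are 0 or 1. No non-control spot was saturated. Here, background-subtracted signals of non-outlier spots were averaged by probe and added up by miRNA, then scaled to a 75th percentile taken on each array over 292 probes (more than 50% of spots well above background on all arrays). A floor was set at the 5th percentile of detected scaled values, before log2. Tests covered the 243 miRNAs called detected on both arrays of some group, and 476 were left out. limma 3.58.1 (R 4.3.3; lmFit, eBayes, all 8 arrays, 4 residual degrees of freedom) gave two-sided p-values, adjusted by Benjamini-Hochberg over all 243, threshold 0.05. The number of arrays limits the precision. The code was tested on simulated data.

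Each group's arrays are biological repeats per the series' design text. Replicate number equals slide row per the file headers, and deviations from group means correlated between same-numbered arrays (r 0.16 to 0.71 over 6 pairs of groups, 243 miRNAs). All arrays share 1 slide and 1 scan time. Named miRNAs were the members, other miR-181 entries, the 3 most correlated with each member, and fixed lists. Members and lists were chosen with earlier results of these data known. Alternatives changed scaling, background correction (normexp, on spot medians), probe summary, filter, floor, arrays, block and variance model. RefSeq (GRCr8) sequences matched 9 of the 10 miR-181 entries, all 5 members among them.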

Additional observations from a re-analysis of the deposited data

How the results depend on the processing

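No member passed an adjusted p of 0.05 under any alternative run; the smallest was 0.0988, for miR-181a-1-3p under clozapine without control replicate 2. The replicate block, paired by slide row, gave a smallest member adjusted p of 0.152. It raised the counts of all miRNAs called to 1 for risperidone and 2 for clozapine, against 0 each. At an unadjusted p under 0.05 it added miR-181a-5p under haloperidol, and it moved no member across the adjusted threshold. Without a detection filter 1 miRNA was called for risperidone. Leaving out 1 array, haloperidol had 0 to 5 calls, risperidone 0 to 6 and clozapine 0 to 7, the highest each without control replicate 2. miR-181a-5p, miR-181b-5p and miR-181d-5p under haloperidol, miR-181a-1-3p under clozapine and the 3 changes between arms kept their direction under all alternatives run, but not their size: without scaling they were -0.17, -0.15, -0.017 and 0.21 for the 4 members, while leaving out the scaling left the changes between arms as they were. Other log2 fold changes turned in direction, and the cause was not tested. Scaled to the percentile over all probes, miR-181a-5p was at 0.41 for risperidone and 0.42 for clozapine, and clozapine gave 0.57 for miR-181b-5p, 0.59 for miR-181c-5p and 0.58 for miR-181d-5p. This percentile was a weak signal, lowest on replicate 2 of risperidone (1.82) and of clozapine (3.34), which limits that alternative. With normexp, miR-181a-5p was at 0.067 for risperidone and 0.22 for clozapine, clozapine gave 0.51 for miR-181b-5p, 0.88 for miR-181c-5p and 0.56 for miR-181d-5p, and haloperidol gave -0.011 for miR-181c-5p and -0.022 for miR-181a-1-3p. Without scaling, risperidone gave -0.59 for miR-181b-5p, -0.56 for miR-181c-5p, -0.56 for miR-181d-5p and -0.20 for miR-181a-1-3p. The deposited gene-level signal gave -0.014 for miR-181b-5p and -0.15 for miR-181c-5p under risperidone. Clozapine gave 0.26 for miR-181c-5p after quantile normalization and 0.24 after cyclic loess, and the brightest probe of miR-181d-5p gave -0.0095 under risperidone. Leaving out 1 array, risperidone gave -0.42 to 0.075 for miR-181a-5p, -0.12 to 0.19 for miR-181b-5p, -0.39 to 0.51 for miR-181c-5p and -0.079 to 0.19 for miR-181d-5p. Clozapine gave -0.48 to 0.021, -0.31 to 0.15, -0.40 to 0.27 and -0.14 to 0.00093 for the same 4, and haloperidol gave -0.13 to 0.55 for miR-181c-5p and -0.17 to 0.44 for miR-181a-1-3p. Without replicate 2 of both risperidone and clozapine, an alternative chosen after seeing the data, risperidone gave -0.0995 for miR-181b-5p and -0.079 for miR-181d-5p, and clozapine 0.021, 0.15 and 0.00093 for miR-181a-5p, miR-181b-5p and miR-181d-5p. A low signal limits the dimmer miR-181c-5p probe.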
